A study of Mus musculus with 15 samples.

Results

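The genes described are those of the potassium, sodium, calcium and pacemaker channel families in mouse left ventricle, measured after a sham operation or after the operation labelled TAC in a series titled for pressure overload. Members were all non-control probe sets with a single gene symbol starting with Kcn, Scn, Cacn or Hcn. They came to 76 probe sets of 63 genes, out of 12422 non-control probe sets, of which 10833 had a single symbol. The 15 one-colour oligonucleotide arrays fell into 3 female sham, 6 male sham, 3 female TAC and 3 male TAC hearts. The labels give sex and operation for each heart, but the sources used here state neither strain, age nor time after the operation, nor whether each heart came from a separate animal. The p-values therefore measure only the spread between these samples, which may be technical.

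Ion channels set the shape of the cardiac action potential. Sodium channels open first and carry the upstroke, L-type calcium channels hold the plateau and trigger contraction, and several potassium channels end it by letting potassium out. Inward rectifiers keep the resting potential near that of potassium, and HCN channels carry the pacemaker current. A loss of potassium current with slower repolarization is a known feature of the hypertrophied heart. The set is wider than its name: inward rectifiers (Kcnj), tandem-pore leak channels (Kcnk) and Kcnn channels, which open with calcium, are not opened by voltage, and Scnm1 encodes a splicing factor.

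Each value is the linear intensity of a probe set, in arbitrary units, and the median of an array lay between 21.2 and 26.7. Of the non-control probe sets of an array, 42.4% to 48.4% lay below 20, and values were raised to 20 before log2 was taken. A level of 20 is used here as a mark of a usable signal, and it is not a detection call. Female TAC 1 had the lowest median and the largest share below 20. Markers of ventricular muscle cells had summed levels of 28373 to 33813 in male sham and 31838 to 33726 in female sham hearts, against 28092 to 34742 and 28467 to 32738 with TAC, so the groups overlapped. Of the 11 neuronal markers with a probe set, Snap25, Syt1, Nefm and Gap43 were below 20 on all 15 arrays, while 7 others were above it on most.

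Of the 76 member probe sets, 38 probe sets of 35 genes were above 20 on most arrays, meaning at least 8 of 15. On all 15 arrays 22 were above 20, and 16 were above it on 8 to 14 arrays. Another 17 were above 20 on 1 to 7 arrays and 21 on none. The share above 20 differed between families. All 8 probe sets of the pore-forming calcium channel alpha1 subunits and all 5 of the auxiliary calcium channel subunits were above 20 on most arrays, but none of the 8 sodium channel probe sets was.

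**Figure D1:**
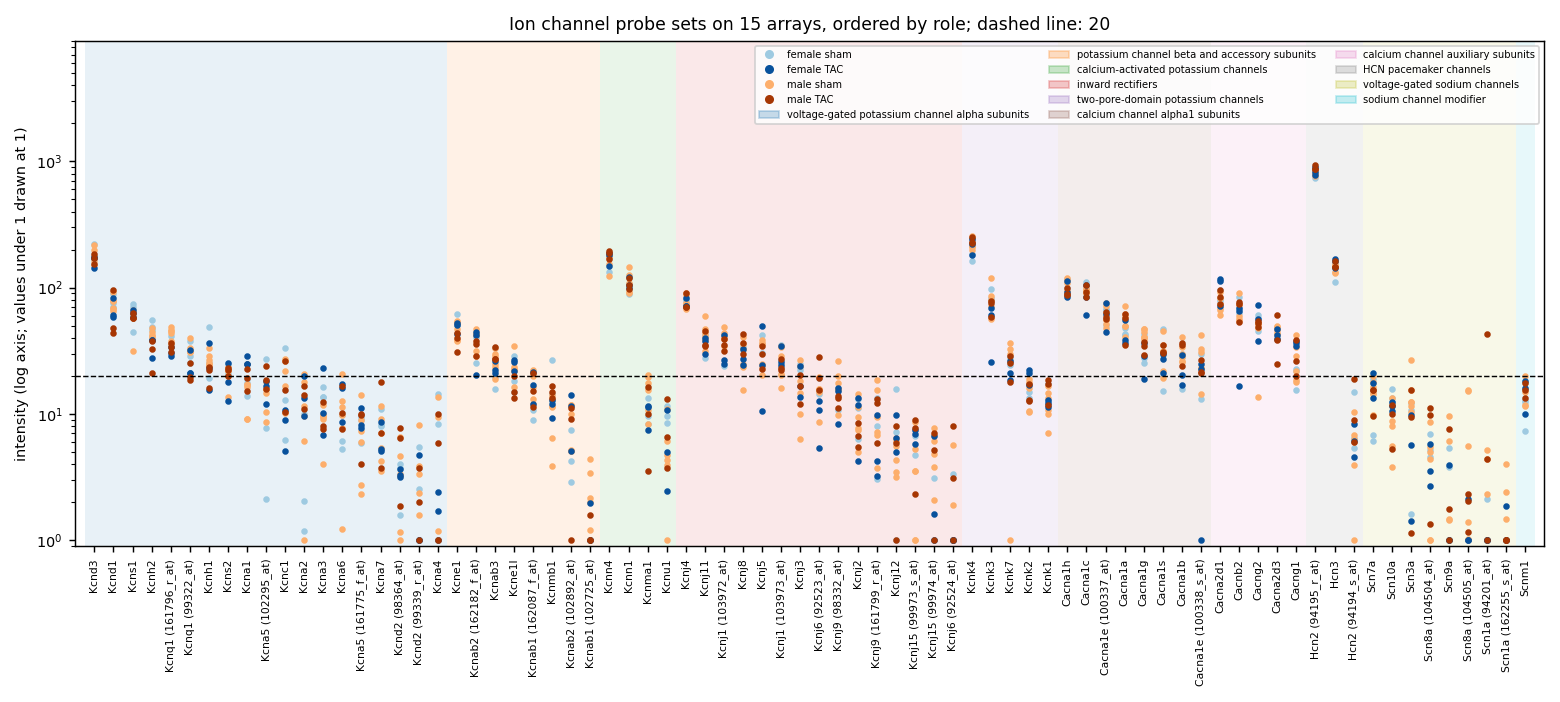
Intensity of every member probe set on each of the 15 arrays, on a log axis in arbitrary units, ordered by role (background shade) and coloured by group, with values under 1 drawn at 1. The dashed line is 20: all calcium channel probe sets have most arrays above it, and the sodium channel probe sets lie below it on all but at most 2 arrays.

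Among the voltage-gated potassium channel alpha subunits, 8 of 19 probe sets were above 20 on most arrays. Kcnd3, a subunit of the transient outward current that starts repolarization, lay between 143 and 219 on the 15 arrays. Kcnd1, of the same subfamily, lay between 43.8 and 96.3. Both Kcnd2 probe sets stayed below 20, with highest values of 7.71 and 8.10. Kcna5, which carries an ultrarapid delayed rectifier current, was above 20 on 2 arrays with 1 probe set and on none with the other, and Kcna4 had a highest value of 14.4. Kcnd2 and Kcna5 are known channel genes of the mouse ventricle, and whether their low values come from little RNA or from weak probes cannot be told apart here. Of the other alpha subunits above 20 on most arrays, Kcns1 lay between 31.7 and 74.2, Kcns2 between 12.7 and 25.2 and Kcnh1 between 15.6 and 49.1. Kcnc1 and Kcna1 were above 20 on 5 arrays each, and Kcna2, Kcna3, Kcna6 and Kcna7 on at most 1.

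Accessory subunits and leak channels were measured for fewer genes. Kcne1 lay between 31.1 and 62.1 and its relative Kcne1l between 13.4 and 34.6, and the beta subunits Kcnab2 and Kcnab3 reached 47.3 and 33.9. Kcnab1 was above 20 on at most 5 arrays. The leak channels Kcnk4, Kcnk3 and Kcnk7 were above 20 on most arrays, with Kcnk4 between 161 and 254, and Kcnk1 and Kcnk2 were not. Kcnn1 and Kcnn4 lay between 89.2 and 145 and between 125 and 195, while Kcnma1, its beta subunit Kcnmb1 and Kcnu1 were above 20 on at most 1 array.

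The inward rectifiers gave the same kind of picture. Kcnj2 and Kcnj12, which carry the resting inward rectifier current in heart muscle, had highest values of 14.4 and 15.9, and Kcnj15 stayed below 20 with both of its probe sets. Kcnj4, of the same subfamily, lay between 67.4 and 90.9. Kcnj11 and Kcnj8, the pore subunits of ATP-sensitive potassium channels, lay between 27.8 and 60.1 and between 15.5 and 42.7. The probe sets of Kcnj1, a channel best known from the kidney, lay between 23.9 and 49.0 and between 16.1 and 35.0. Kcnj5, a subunit of the acetylcholine-gated channel of the atrium, was above 20 on 14 arrays, with 10.5 on the other, and its partner Kcnj3 was above 20 on 7.

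Cacna1c, the pore of the cardiac L-type calcium channel, lay between 60.6 and 112. Cacna1h and Cacna1g, pores of T-type channels, lay between 84.6 and 118 and between 18.8 and 47.2. The neuronal pores Cacna1a and Cacna1b reached 71.5 and 40.6, the skeletal muscle pore Cacna1s reached 47.5, and the probe sets of Cacna1e reached 76.2 and 42.1. Of the auxiliary subunits, Cacna2d1 lay between 60.5 and 117 and Cacnb2 between 16.5 and 90.7. Cacna2d3, Cacng2 and Cacng1 reached 60.6, 72.3 and 42.4. Hcn3 was above 20 on all arrays, between 110 and 169. Sodium channel probe sets for Scn1a, Scn3a, Scn7a, Scn8a, Scn9a and Scn10a were above 20 on at most 2 of the 15 arrays. These are mainly channels of neurons, apart from Scn7a, a sodium-sensing relative.

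The main comparison asked how the channel genes differed between all TAC and all sham hearts, as the mean of the female and the male difference. No channel probe set was called among the 41 that were bright enough to be tested. The members with the smallest p values were lower with TAC: Kcnh2 differed by -30.4% and Kcnq1 by -27.5% and -19.4% with its 2 probe sets. The median log2 change of the 41 was -0.09, where that of all 7453 tested probe sets was -0.03, and without female TAC 1 both were higher, at -0.05 and 0.00. By sign, 29 of the 41 were lower and 12 higher. The 41 include Kcna1, Kcnc1 and Kcnj3, not above 20 on most arrays, whose signs are limited by the floor here and in later counts. Of all tested probe sets, 58.2% were lower.

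At an adjusted p under 0.05, limma called 0.322% of all tested probe sets, which was 24 of 7453. The lowest adjusted p of a member was 0.125. At an unadjusted p under 0.05 there were 6 members, or 14.6% of 41, where 7.51% of all tested probe sets passed. Lower with TAC were 4 of them, or Kcnh2, both Kcnq1 probe sets and Kcnk3, where the share of all tested probe sets was 4.66%. The other 2, Cacng1 and Kcna1, were higher, where that share was 2.86%. Kcna1 was tested only through its values in the female TAC hearts and was too dim for the test without female TAC 1, so its place in these counts supports nothing. The count of 6 also rests on single arrays: it was 3 of 42 (7.14%) without female sham 2 and 10 of 41 (24.4%) without female TAC 3, and 3 with additive terms for sex and operation. For all 41 members the 95% interval of the averaged log2 change stayed within 1 in both directions, and for 26 it stayed within 0.5. Kcna1, Kcnc1 and Kcnj3 were held at the floor on most arrays, so their intervals put no bound on the true change. In females the interval stayed within 1 for 38 of the 41, and for the difference between the sexes it did for 34. A log2 change of 1 is a change of 2-fold.

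**Figure D2:**
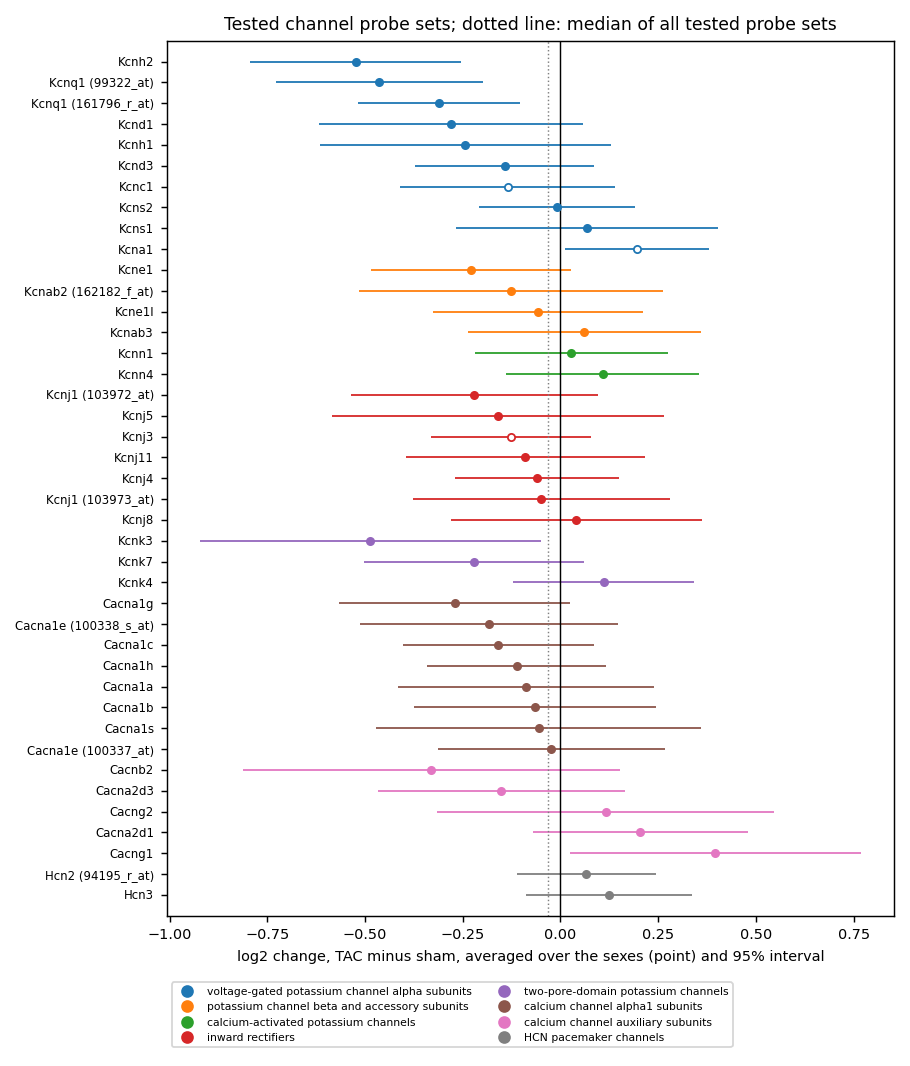
Log2 change of each of the 41 tested members, TAC minus sham averaged over the sexes, with its 95% interval, grouped and coloured by role, with open points for the 3 members not above 20 on most arrays, whose changes are limited by the floor. The solid line is 0 and the dotted line the median of all tested probe sets, -0.03. Kcnh2, both Kcnq1 probe sets and Kcnk3 have intervals below 0, and Cacng1 and Kcna1 above it. Kcna1 is among the open points, and its interval supports nothing.

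Kcnh2 encodes the pore of the rapid delayed rectifier, a late repolarizing current. Its intensity in female sham hearts 1 to 3 was 48.5, 46.1 and 55.8, and in female TAC hearts 1 to 3 it was 38.5, 27.8 and 38.3. In male sham hearts it ran from 38.8 to 47.8 with a median of 41.8, and in male TAC hearts 4 to 6 it was 32.5, 21.2 and 38.0. All 6 TAC values lay below all 9 sham values, by a narrow margin of 38.5 against 38.8. Of all tested probe sets 0.161% were separated in this direction, and Kcnh2 was the only member among the 41. The log2 change was -0.52 ± 0.13 (SE; 95% interval -0.79 to -0.25), with an unadjusted p of 0.000774 and an adjusted p of 0.125 in limma, so it was not called. Without male TAC 6 the change was -0.61 and the adjusted p 0.0452, which passes. The adjusted p lay between 0.0452 and 0.349 over the runs without 1 array.

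Kcnq1 encodes the pore of the slow delayed rectifier, which forms with the accessory subunit Kcne1. Its plain _at probe set had 28.8, 25.4 and 37.5 in female sham and 20.9, 21.1 and 32.0 in female TAC hearts. In male sham hearts it ran from 30.7 to 39.9 with a median of 31.8, and in male TAC hearts 4 to 6 it was 19.5, 18.5 and 25.3. The male groups did not overlap, and the female groups did, through female TAC 3. The log2 change was -0.46 ± 0.13 (SE), with an adjusted p of 0.199, and since 2 male TAC values were below 20 it is limited by the floor.

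The second Kcnq1 probe set, with the suffix _r_at, was above 20 on all 15 arrays. It had 41.2, 35.6 and 36.1 in female sham and 30.1, 28.5 and 33.9 in female TAC hearts, with no overlap. In males it ran from 35.7 to 48.8 in sham hearts, with a median of 44.5, and was 36.5, 34.0 and 31.0 in TAC hearts 4 to 6, so the groups overlapped through TAC 4 and sham 8. Its log2 change was -0.31 ± 0.10 (SE), with an adjusted p of 0.335. Both probe sets of the gene thus lay lower with TAC, and neither was called.

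Kcne1 itself had a mean of 54.6 ± 6.59 (SD, n = 3) without and 48.7 ± 4.93 (SD, n = 3) with TAC in females. In males these means were 47.2 ± 7.60 (SD, n = 6) and 38.4 ± 6.63 (SD, n = 3). The log2 change was -0.23 ± 0.12 (SE), and its interval of -0.48 to 0.03 holds 0. Kcnd1 and Kcnh1 had -0.28 ± 0.16 and -0.24 ± 0.18 (SE), and Kcnd3 had -0.14 ± 0.11 (SE). Single arrays moved these values: Kcnd1 had -0.46 without male TAC 6 (unadjusted p = 0.00174) and -0.18 without male TAC 4. Kcnh1 ran from -0.38 without female sham 3 to -0.06 without female sham 2, and Kcnd3 had -0.09 without female sham 3. In all, 8 of the 10 tested alpha subunit probe sets were lower, where 58.2% of all tested probe sets were, and their median was -0.19. Both Kcnq1 probe sets are among the 8. So is Kcnc1, which was above 20 on few arrays, most of them sham, so its place in this count supports nothing.

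**Figure D3:**
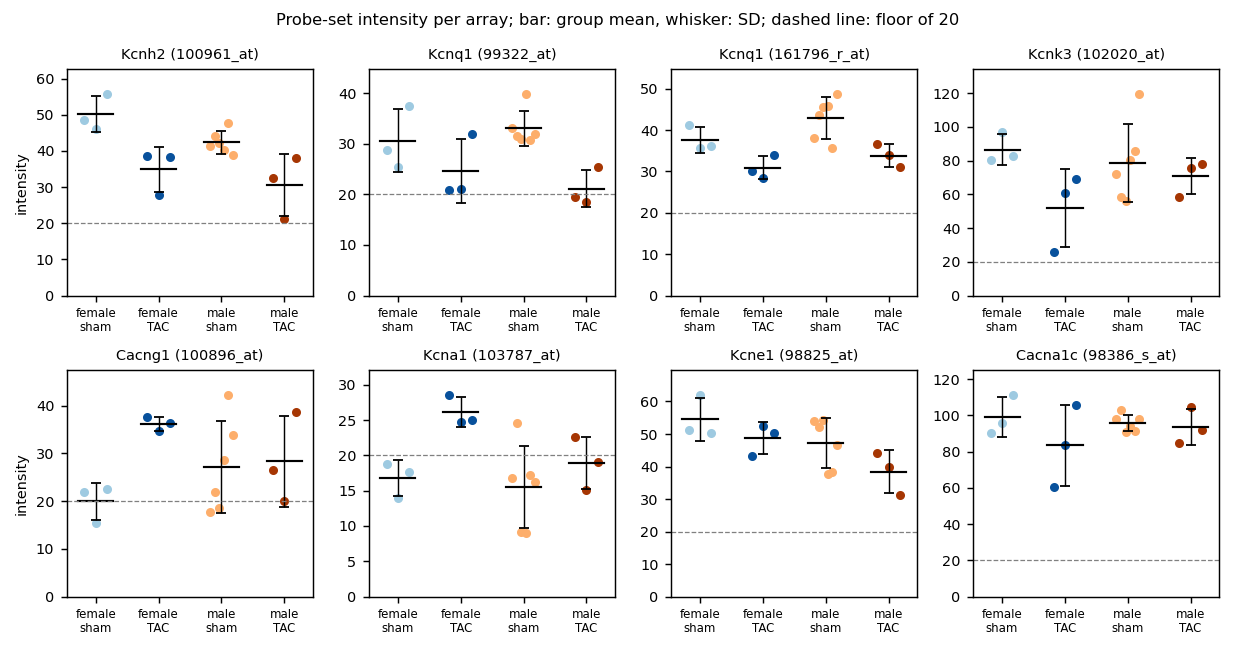
Intensity per array in arbitrary units for the 6 probe sets with an unadjusted p under 0.05 and for Kcne1 and Cacna1c, by group, with the group mean (bar), SD (whisker) and the floor of 20 (dashed). Kcnh2 has every TAC point below every sham point, whereas the points of the 2 operations overlap over all 15 arrays in the other panels.

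Kcnk3, a tandem-pore channel that carries a potassium leak current, had 80.3, 96.8 and 82.7 in female sham and 25.8, 60.6 and 69.3 in female TAC hearts. In male sham hearts it ran from 56.3 to 120 with a median of 76.1, and male TAC hearts 4 to 6 had 58.4, 75.5 and 78.2. The female groups did not overlap, and the male TAC values lay inside the sham range. The averaged log2 change was -0.49 ± 0.21 (SE), with an adjusted p of 0.585. It was -0.27 without female TAC 1, whose value of 25.8 was the lowest, and the unadjusted p then rose from 0.0311 to 0.122.

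Cacng1, a gamma subunit known from the skeletal muscle calcium channel, had 21.8, 15.4 and 22.6 in female sham and 37.6, 34.7 and 36.4 in female TAC hearts. Male sham hearts ran from 17.8 to 42.4 with a median of 25.3, and male TAC hearts 4 to 6 had 26.4, 19.9 and 38.7. The averaged log2 change was 0.40 ± 0.18 (SE), with an adjusted p of 0.611, and without male TAC 6 it was 0.27 (unadjusted p = 0.136). The 5 skeletal muscle markers tested were all lower in sign, as were 58.2% of all tested probe sets. None of the 5 was called, and their median was -0.16. Myh4, Tnnt3 and Atp2a1 were above 20 on all 15 arrays, Mylpf on 12 and Myh2 on 6. Tnni2 and Myh1 were below 20 on all arrays. Kcna1, a delayed rectifier subunit best known from neurons, was above 20 on only 5 of 15 arrays. All 3 female sham values were below 20 (18.8, 14.0 and 17.6) and the female TAC values were 28.6, 24.8 and 25.02. The 3 female TAC values were thus above all 3 female sham values, but the probe set was bright enough to be tested only through them. In males, 1 of 6 sham and 1 of 3 TAC arrays were above 20, so no change is given in the text for this gene.

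None of the calcium channel pores was called. All 8 tested alpha1 probe sets, of 7 genes, were lower with TAC, where 58.2% of all tested probe sets were. The 8 had a median of -0.10, a range of -0.27 to -0.02 and a median SE of 0.14. None had an unadjusted p under 0.05. Cacna1c had 99.1 ± 11.1 (SD, n = 3) without and 83.4 ± 22.6 (SD, n = 3) with TAC in females, and 95.8 ± 4.67 (SD, n = 6) and 93.6 ± 10.1 (SD, n = 3) in males. Its log2 change was -0.16 ± 0.12 (SE; 95% interval -0.40 to 0.08), and it was -0.05 without female TAC 1 and -0.25 without female TAC 3 (unadjusted p = 0.0333). Cacna1g had -0.27 ± 0.14 (SE), and -0.16 without female TAC 2 or without female sham 1, and Cacna1h -0.11 ± 0.11 (SE). In males Cacna1g had -0.36 and all TAC values lay below all sham values, as they did for 1.34% of all tested probe sets.

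The auxiliary subunits pointed both ways. Cacna2d1, which brings calcium channels to the membrane, was at 77.9 ± 11.7 (SD, n = 9) in sham and 92.6 ± 19.1 (SD, n = 6) in TAC hearts, with a log2 change of 0.20 ± 0.13 (SE), and 0.32 without female TAC 1 (unadjusted p = 0.0171). Cacnb2, the main cardiac beta subunit, had -0.33 ± 0.23 (SE), and its low value was again that of female TAC 1, at 16.5 where the other 14 arrays lay between 53.9 and 90.7. Without that array the change of Cacnb2 was -0.04.

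The inward rectifiers and pacemaker channels had no probe set with an unadjusted p under 0.05. Of the 7 tested Kcnj probe sets 6 were lower, where 58.2% of all tested probe sets were. The 6 include Kcnj3, which was not above 20 on most arrays. The 7 had a median of -0.09 and a range of -0.22 to 0.04. Their median SE was 0.15. Kcnj8 had -0.24 in females and 0.33 in males. Kcnj11 had -0.09 ± 0.14 and Kcnj4 -0.06 ± 0.10 (SE). Hcn3 had 0.12 ± 0.10, and Hcn2 0.07 ± 0.08 (SE). The calcium-activated channels Kcnn1 and Kcnn4 had 0.03 ± 0.12 and 0.11 ± 0.12 (SE). The interval of Hcn2, from -0.11 to 0.24, was the narrowest of these. It belongs to the _r_at probe set alone, since the other (_s_at) had a highest value of 18.7 and was not tested.

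Kcnh2 lay lower with TAC and was not called. Neither Kcnd3, a bright potassium channel gene, nor Cacna2d1, a calcium channel gene, had an unadjusted p under 0.05 in limma. The promoter regions of these 3 genes are shown. Each runs from 250 bases before to 50 after an annotated start in RefSeq on assembly GRCm38.p6, 5′ to 3′ on the gene's strand, and capitals mark GC boxes (GGGCGG or its reverse complement CCGCCC). Kcnh2 is at chr5:24329542-24329841 (minus strand), Kcnd3 at chr3:105451640-105451939 (plus strand) and Cacna2d1 at chr5:15934441-15934740 (plus strand).
Kcnh2: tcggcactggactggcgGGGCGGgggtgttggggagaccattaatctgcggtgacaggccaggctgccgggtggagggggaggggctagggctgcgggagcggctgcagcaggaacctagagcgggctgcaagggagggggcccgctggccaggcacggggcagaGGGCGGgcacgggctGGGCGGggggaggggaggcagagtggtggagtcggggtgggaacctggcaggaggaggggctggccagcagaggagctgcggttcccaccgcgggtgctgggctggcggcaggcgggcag
Kcnd3: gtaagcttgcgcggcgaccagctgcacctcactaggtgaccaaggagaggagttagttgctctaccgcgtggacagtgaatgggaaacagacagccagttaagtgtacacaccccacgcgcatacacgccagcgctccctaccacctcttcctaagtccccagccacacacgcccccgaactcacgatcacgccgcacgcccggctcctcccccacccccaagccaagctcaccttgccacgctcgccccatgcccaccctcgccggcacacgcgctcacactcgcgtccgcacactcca
Cacna2d1: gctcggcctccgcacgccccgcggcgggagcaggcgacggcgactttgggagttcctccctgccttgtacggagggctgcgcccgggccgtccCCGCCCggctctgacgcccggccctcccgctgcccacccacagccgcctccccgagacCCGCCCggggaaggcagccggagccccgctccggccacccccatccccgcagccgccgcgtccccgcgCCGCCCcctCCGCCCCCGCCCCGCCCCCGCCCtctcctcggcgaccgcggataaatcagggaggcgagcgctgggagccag
The Kcnh2 window held 3 GC boxes, the Kcnd3 window 0 and the Cacna2d1 window 7, and none of them held the TATA box letters TATAAA on either strand. Promoter windows were found for 47 of the 63 genes, 60 windows in all. A GC box was in 30 of these 60 and in 35.7% of all 32851 windows of the same length, and TATAAA was in 3 of 60 and in 13.6%. A match is a description of the letters only.

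Females and males were then taken apart. In females limma called no member, where 0.0805% of all tested probe sets were called, and 4 members had an unadjusted p under 0.05, or 9.76% against 4.59% of all. Kcnh2 and Kcnk3 were the 2 lower ones, where 2.98% of all passed in that direction, and Kcna1 and Cacng1 the 2 higher ones, where 1.61% did. By sign alone 31 of 41 were lower, against 58.7% of all. The female groups did not overlap for Kcnh2, Kcnk3 and Kcnq1 (_r_at), 3 members lower against 5.49% of all, and for Cacng1 and Kcna1, 2 members higher against 3.02%, of which Kcna1 counts for nothing, since its female TAC values also decided that it was tested. Cacng1 had a female log2 change of 0.76 ± 0.27 and Kcnh2 of -0.54 ± 0.19 (SE), and Kcnk3 had -0.86 ± 0.31 (SE). Without female TAC 1 the female change of Kcnk3 was -0.41 (unadjusted p = 0.128). In males no member was called, where 0.134% of all were, and 3 members had an unadjusted p under 0.05, or 7.32% against 6.2% of all. All 3 were lower, where 3.22% of all passed, and 0 were higher, where 2.98% did. They were Kcnh2, with -0.51 ± 0.17 (SE), and both Kcnq1 probe sets, with -0.61 ± 0.16 and -0.34 ± 0.13 (SE). The male change of Kcnh2 was -0.27 (unadjusted p = 0.110) without male TAC 5, which had the lowest value. By sign alone 26 of 41 were lower in males, against 52.7% of all. The male groups did not overlap for Cacna1g, Kcnh1, Kcnh2 and Kcnq1 (_at), 4 members lower against 1.34% of all, and 0 members were higher without overlap, against 1.62%.

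For Kcnh2 the difference between the female and the male change was -0.03 ± 0.26 (SE, female minus male), with a 95% interval of -0.57 to 0.51. Of the 41 members 32 had the same sign in both sexes, 24 of them lower, where 57.6% of all tested probe sets had the same sign. The difference between the sexes, tested as an interaction, was called for no member and for 0% of all probe sets, and 1 member had an unadjusted p under 0.05. It was Kcna1, whose value is not given, since most of its male values are below the floor. The next were Cacng1 with 0.72 ± 0.35 and Kcnj8 with -0.57 ± 0.31 (SE, adjusted p = 1.00 for each). Of all probe sets 2.56% had an unadjusted p under 0.05 in this comparison, 1.1% with a higher and 1.46% with a lower female change. The female change was the lower one in 20 of 41 members and in 55.2% of all.

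**Figure D4:**
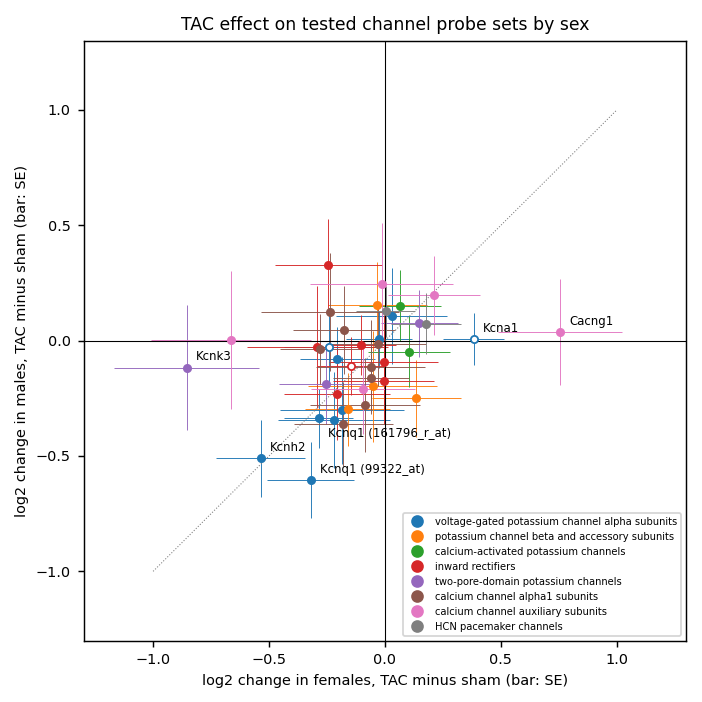
Log2 change with TAC in females (horizontal) against males (vertical) for the 41 tested members, with SE bars, coloured by role; named points have an unadjusted p under 0.05 in at least 1 sex, and open points mark the 3 members limited by the floor. Kcnh2 lies near the dotted line of equal change, at -0.54 and -0.51, while Cacng1 is at 0.76 in females and 0.04 in males.

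Between female and male sham hearts no member was called, and neither was any other probe set (0% of 7453). Cacna1g had the smallest p, with female values of 42.6, 27.9 and 25.4 and male values from 39.3 to 47.2. The difference was -0.47 ± 0.18 (SE, female minus male, unadjusted p = 0.0203, adjusted p = 0.974). Female sham 1 lay in the male range, and without it the difference was -0.70. Next were Kcnq1 (_r_at) with -0.19 ± 0.13 and Cacna1a with -0.29 ± 0.20 (SE). At an unadjusted p under 0.05 this was 1 of 41 members, or 2.44%, where 4.71% of all passed. It was lower in females, as were 1.4% of all, where 3.31% of all were higher. By sign alone 19 of 41 members were lower in females, against 39.1% of all.

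Single arrays differed in how many members lay low. Against the sham mean of the same sex, 32 of 41 members were lower on female TAC 1, with a median of -0.23 where the median of all tested probe sets was -0.15. On the other TAC arrays 19 to 25 of 41 were lower. On sham arrays the number was 19 to 25 as well. Each sham array is part of the mean it was set against, which holds its number near the middle. The sham range is therefore no measure for the TAC arrays. With each array scaled to a common median, 26 of the 41 members were lower and the median was -0.05.

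**Figure D5:**
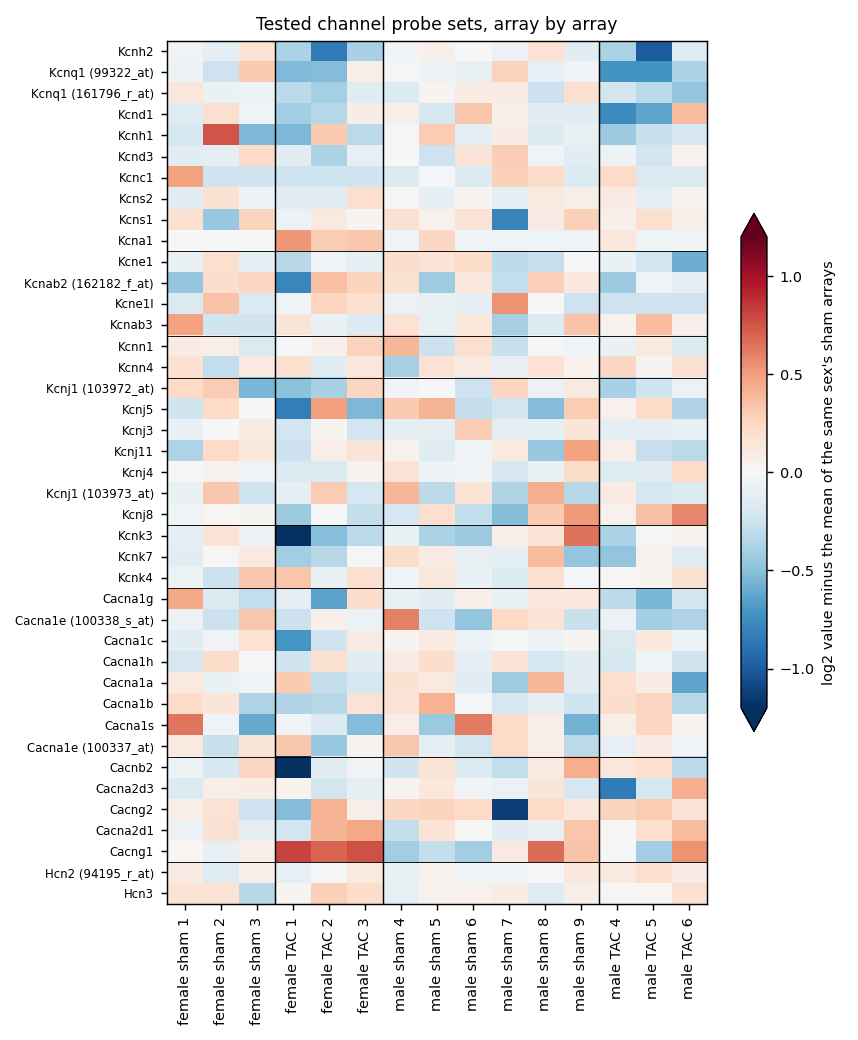
Each tested member (rows, by role) on each array (columns, by group) as log2 value minus the mean of the same sex's sham arrays, blue for lower and red for higher, with colours ending at 1.2 in both directions. Kcnh2 and Kcnq1 (_r_at) are lower on all 6 TAC arrays and Kcnq1 (_at) on all but female TAC 3, and Kcnk3 and Cacnb2 are lowest on female TAC 1.

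Genes that work with these channels were read from lists. Of 20 tested channel partners and regulators none was called, 10 were higher and 10 lower, and the median was 0.00. Abcc9, the sulfonylurea receptor that regulates ATP-sensitive potassium channels, had the smallest p. It was at 109 ± 19.3 (SD, n = 9) in sham and 78.3 ± 21.7 (SD, n = 6) in TAC hearts, with a log2 change of -0.55 ± 0.15 (SE) and an adjusted p of 0.213 in limma. Its pore partners Kcnj11 and Kcnj8 had -0.09 and 0.04. Of 9 gap junction and conduction genes none was called, with a median of -0.04. Of 14 transcription factors 10 were lower, where 58.2% of all tested probe sets were, and none was called. Gata6 had -0.27 ± 0.11 and Mef2a -0.42 ± 0.17 (SE, adjusted p = 0.553 in limma for both).

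Markers of other cell types were read beside these results. Of the 6 tested fibroblast genes 5 were higher in sign with TAC, with a median of 0.41. Of these 6, 4 had an unadjusted p under 0.05, all higher, where 2.86% of all tested probe sets passed in that direction. None of the 6 was called. Their summed level with Tcf21, which was above 20 on 2 arrays, ran from 1387 to 1453 in female sham and from 1438 to 2260 in female TAC hearts, and from 1086 to 1506 and from 1621 to 1920 in males. Of the 9 ventricular muscle markers 7 were lower in sign, with a median of -0.06, where 58.2% of all tested probe sets were lower. None of the 9 was called. An unadjusted p under 0.05 was found for 3, all lower, where 4.66% of all passed in that direction. They were Myh6, the alpha myosin heavy chain, with -0.32 ± 0.13 (SE), Ryr2 with -0.52 ± 0.13 (SE) and Kcnq1. Tnni3, cardiac troponin I, had -0.27 ± 0.13 (SE). The 3 smooth muscle markers tested had a median of -0.36, and none was called. All 3 were lower in sign, as were 58.2% of all tested probe sets. Medians of the tested markers were -0.01 for endothelium (7 genes), 0.00 for macrophages (6), 0.00 for neurons (7), 0.02 for Schwann cells (2) and -0.21 for atrial muscle cells (2), with none called. The muscle cell list thus holds a member, Kcnq1, whose p is also counted among the channels, and Ryr2, the calcium release channel. In whole ventricle, fewer cells of a type and less RNA per cell cannot be told apart, and the part of cell composition in the channel values was not tested.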

How the data were processed

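The authors deposited 1 table of probe-set intensity values on a linear scale for 15 arrays; the sources used here do not state the software, background correction or scaling behind them. The 66 control probe sets of 12488 were left out, values were floored at 20 and log2 was taken, and the 60% with the highest mean were tested (7453). Member symbols came from the platform annotation, and all 76 matched a RefSeq gene table by Entrez number with the same symbol. Roles followed the symbols, with Kcnu1 put beside its calcium-activated relatives and Scnm1 apart. The model, in limma 3.58.1 under R 4.3.3, had a mean for each of 4 groups and moderated variances (eBayes), with Benjamini-Hochberg adjustment over all tested probe sets and calls at 0.05; intervals are 95%. Genes of the other lists were read from their probe set of highest mean. The method was tested on simulated data. Sham and TAC titles share numbers 1 to 6. Same-numbered deviations from the group means correlated at 0.244, 0.270 and 0.117 in females and 0.0641, -0.0828 and 0.0136 in males. Only the female values passed a limit of 0.1. The labels state no pairing and differently numbered arrays were not correlated, so whether the numbers pair any arrays is not known. Members, lists and the naming rule (Kcnq1, tested members with an unadjusted p under 0.05, and the 3 of smallest p elsewhere) were chosen with earlier results of these data known. The number of arrays limits the precision. Alternatives were quantile or median scaling, a floor of 5, an offset of 20, other filters, trended and robust eBayes, models without or with additive sex, the replicate number as a block, and leaving out each array.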

Additional observations from a re-analysis of the deposited data

Results flagged for a closer look

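The plain _at probe set of Kcnq1 had 39.9 in male sham 7, where the other 5 male sham hearts lay between 30.7 and 33.2, a gap that passed Dixon's 95% limit for 6 values. Only the male sham group was large enough to be tested, and of the 9 named probe sets 1 passed, and chance passes about 1 in 20. Without male sham 7 the averaged log2 change of this probe set was -0.44 (adjusted p = 0.250 in limma), where it was -0.46 with all arrays.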

How the results depend on the processing

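No member was called under any of the 11 settings other than leaving out arrays, and Kcnh2 without male TAC 6 was the only member called over the 15 runs without 1 array (members called 0 to 1). The 6 probe sets with an unadjusted p under 0.05 in the averaged effect kept its sign in each run that tested them. The 3 of smallest p in each other comparison kept their sign in that comparison. Members with smaller changes, such as Kcnj8, did not all do so. The kept signs are no support, since those probe sets were chosen for a small p on these same arrays. Kcna1, among the 6, was not tested without female TAC 1. Over all probe sets, the averaged effect gave 24 calls, 45 with quantile normalization or scaling to a common median, 12 with a floor of 5, 13 with no filter, 8 with the replicate block in both sexes, and 12 to 29 without 1 array. In females the count was 6, with 10 by trended and robust eBayes, 3 with the replicate block in both sexes and 2 to 8 without 1 array. In males it was 10, with 18 after scaling to a common median, 16 by trended and robust eBayes, 6 with the offset, 4 with no filter, 3 with the floor of 5, 3 with the replicate block and 3 to 12 without 1 array. Between sham sexes it was 0, with 2 without the filter and 1 each by trended and robust eBayes and the additive model. The cause of these shifts was not tested. The median of the members was -0.00017 with no filter, where 21 of 76 are at 0 because all arrays lie on the floor. In females it was -0.09, and -0.0186 after scaling to a common median and 0 with no filter; in males it was -0.05, and -0.12 with the replicate block in both sexes. The block in females alone called no member. Dim probe sets have only a bound at the floor, so changes of the 35 untested members could not be measured; without the filter none of them was called.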

Other observations

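Several genes had probe sets that did not give the same picture. Hcn2 had 1 probe set with the suffix _r_at at 743 to 929 on all arrays and another (_s_at) whose highest value was 18.7. Of the 13 genes with 2 probe sets, 2 were above 20 on most arrays with only 1 of them, Hcn2 and Kcnab2, and 3 with both, Cacna1e, Kcnj1 and Kcnq1. For the other 8 neither was. Suffixes such as r and f mark probe sets that broke the design rules or that match a sequence family.

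The plain _at probe set of Scn1a had 43.2 in male TAC 6, where the other 14 arrays lay at or below 5.19. It was chosen after its values were seen.

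Other ion channel genes were also read. Of 23 tested, 10 were higher and 13 lower with TAC, where 58.2% of all tested probe sets were lower. None of the 23 was called, and their median was -0.03. P2rx6, an ATP-gated channel, had -0.34 ± 0.15 (SE, adjusted p = 0.592 in limma) and Ryr2 had -0.52 ± 0.13 (SE, adjusted p = 0.166).

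Among sham hearts, the SD of the log2 value over the 9 arrays ran from 0.09 for Hcn2 (_r_at) to 0.48 for Cacng2 over the 41 tested members, with a median of 0.25.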
